A study of Homo sapiens with 54 samples.

Results

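The genes described here are the numbered ZNF genes of human chromosome 19. They were taken as every gene that the deposited tables place on chromosome 19, give as protein-coding and name ZNF followed by a number, which gave 246 genes of the 60676 in each table. They were followed in hMSN-like cells, cultures of medium spiny neuron type differentiated from H9, a single human embryonic stem cell line, and exposed to dopamine or to agonists of its receptors. The 53 libraries came from 18 conditions in 4 experiments, with 3 libraries in each condition except 5 Day, of which replicate 1 was not analysed here. The tables hold counts of reads on exons and introns and TPM (transcripts per 1000000), a level corrected for gene length and library size.

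In the 1 mM experiment, PBS control cultures were compared with cultures given 1 mM dopamine as a single exposure (Acute) or repeatedly over 5 days (Chronic), with RNA taken after 1 h or after 24 h, counted from the last exposure. The 1 µM experiment had the same design with 1 µM dopamine and PBS controls of its own. In the time course, cultures received 1 mM dopamine daily for 2, 3, 4 or 5 days and were extracted after 1 h, beside cultures given the ascorbic acid vehicle. In the agonist experiment, cultures received SKF82958 or quinpirole, agonists of D1-type and of D2-type dopamine receptors, each at 50 µM, beside water. Dopamine was dissolved in ascorbic acid in every experiment, so in the experiments with PBS controls dopamine and its vehicle cannot be told apart. Acute and Chronic cultures were extracted at different ages, and the labels give no age for the PBS group that both are compared with. For Acute, Chronic or both, dopamine and culture age therefore cannot be told apart in the comparison with PBS.

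ZNF proteins carry tandem zinc fingers, each of which contacts a few bases of DNA. Most of those encoded on chromosome 19 also carry a KRAB domain, which binds TRIM28. TRIM28 in turn brings the histone methyltransferase SETDB1, HP1 proteins (CBX1, CBX3 and CBX5) and histone deacetylases to the bound site, and the family is best known for silencing transposable elements. The genes arose by tandem duplication, lie side by side in clusters, and make mRNAs that are as a rule low in level and short-lived. KRAB-bearing and KRAB-lacking members were not separated here, and ZNF536 and ZNF146 are known members without a KRAB domain.

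By position the 246 genes fell into clusters, a new one being opened where neighbouring genes started more than 1000000 bases apart. The 9 clusters with at least 5 genes ran from ZNF554 to ZNF77 (5 genes), ZNF557 to ZNF846 (16), ZNF653 to ZNF791 (26), ZNF101 to ZNF726 (36), ZNF302 to ZNF792 (5), ZNF565 to ZNF573 (27), ZNF575 to ZNF296 (23), ZNF175 to ZNF331 (40) and ZNF628 to ZNF446 (57). The cluster from ZNF653 to ZNF791 spans 11483427 to 12640098 of chromosome 19 in the authors' build (hg38), and of the 9 it had the highest median log2(fold change) in Acute 1 h and Chronic 1 h of the 1 mM experiment.

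RefSeq promoters (GRCh38.p14, from 250 bases before to 50 bases after the annotated start) were found for 214 of the 246 genes. Those of 5 genes of the ZNF653 to ZNF791 cluster are printed because these genes were high 1 h after 1 mM dopamine. Those of ZNF540, ZNF83, ZNF160 and ZNF616, from clusters farther along the chromosome, are printed because these genes were low after dopamine. Capitals mark the words CCAATCAGG (an extended CCAAT box), GTCACTCAG, ATGCAAAT (the octamer) and CCGGAAG (an ETS-type word) on either strand. The first 2 words were found by counting words in these promoters after the expression values were known, so their frequency is a description. The printed windows are chr19:12162846-12163145 (ZNF136, plus strand), chr19:12484767-12485066 (ZNF709, minus), chr19:12052912-12053211 (ZNF878, minus), chr19:12156685-12156984 (ZNF625, minus), chr19:12365634-12365933 (ZNF442, minus), chr19:37551124-37551423 (ZNF540, plus), chr19:52690447-52690746 (ZNF83, minus), chr19:53103373-53103672 (ZNF160, minus) and chr19:52139889-52140188 (ZNF616, minus).
ZNF136: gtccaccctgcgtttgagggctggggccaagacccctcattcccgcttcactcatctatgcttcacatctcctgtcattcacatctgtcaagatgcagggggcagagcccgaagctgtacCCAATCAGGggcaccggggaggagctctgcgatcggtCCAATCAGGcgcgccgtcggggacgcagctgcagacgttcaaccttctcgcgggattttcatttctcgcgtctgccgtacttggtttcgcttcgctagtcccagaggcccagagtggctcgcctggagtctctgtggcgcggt
ZNF709: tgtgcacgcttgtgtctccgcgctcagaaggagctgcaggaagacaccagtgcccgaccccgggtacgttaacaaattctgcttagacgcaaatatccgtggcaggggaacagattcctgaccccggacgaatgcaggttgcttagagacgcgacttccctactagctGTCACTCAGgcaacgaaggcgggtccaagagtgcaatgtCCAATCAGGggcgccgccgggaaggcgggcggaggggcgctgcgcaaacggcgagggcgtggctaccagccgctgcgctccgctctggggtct
ZNF878: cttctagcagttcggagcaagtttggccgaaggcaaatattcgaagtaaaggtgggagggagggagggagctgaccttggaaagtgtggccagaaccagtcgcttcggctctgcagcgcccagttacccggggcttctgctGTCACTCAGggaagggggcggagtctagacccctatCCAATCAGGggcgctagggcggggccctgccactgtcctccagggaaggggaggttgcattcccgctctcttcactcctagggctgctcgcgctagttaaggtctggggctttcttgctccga
ZNF625: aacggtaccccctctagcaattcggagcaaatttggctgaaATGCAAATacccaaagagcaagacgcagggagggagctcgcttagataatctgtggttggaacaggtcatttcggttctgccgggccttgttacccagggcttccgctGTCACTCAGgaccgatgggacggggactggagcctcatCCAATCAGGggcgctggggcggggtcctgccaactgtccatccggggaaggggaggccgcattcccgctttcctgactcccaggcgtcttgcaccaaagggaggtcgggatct
ZNF442: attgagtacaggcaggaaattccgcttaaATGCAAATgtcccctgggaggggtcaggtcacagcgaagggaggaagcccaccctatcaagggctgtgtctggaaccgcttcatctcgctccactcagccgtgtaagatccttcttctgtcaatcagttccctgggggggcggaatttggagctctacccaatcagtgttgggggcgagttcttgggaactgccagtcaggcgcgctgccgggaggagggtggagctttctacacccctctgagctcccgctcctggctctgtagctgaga
ZNF540: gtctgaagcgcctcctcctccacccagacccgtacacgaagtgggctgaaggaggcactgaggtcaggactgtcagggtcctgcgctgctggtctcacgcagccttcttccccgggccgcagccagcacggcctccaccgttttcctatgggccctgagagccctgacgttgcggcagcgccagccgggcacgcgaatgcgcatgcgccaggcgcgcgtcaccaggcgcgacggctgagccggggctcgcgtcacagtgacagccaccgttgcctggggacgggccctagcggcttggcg
ZNF83: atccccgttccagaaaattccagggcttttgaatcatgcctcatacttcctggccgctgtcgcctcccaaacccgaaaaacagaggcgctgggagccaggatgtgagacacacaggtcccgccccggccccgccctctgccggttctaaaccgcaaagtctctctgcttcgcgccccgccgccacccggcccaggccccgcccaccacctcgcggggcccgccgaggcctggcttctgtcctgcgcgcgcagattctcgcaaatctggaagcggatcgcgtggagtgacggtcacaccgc
ZNF160: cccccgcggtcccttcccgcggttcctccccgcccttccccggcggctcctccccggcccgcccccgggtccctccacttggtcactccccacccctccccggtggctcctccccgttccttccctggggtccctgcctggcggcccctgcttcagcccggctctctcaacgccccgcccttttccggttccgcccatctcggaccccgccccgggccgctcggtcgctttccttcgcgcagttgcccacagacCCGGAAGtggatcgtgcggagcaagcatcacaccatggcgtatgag
ZNF616: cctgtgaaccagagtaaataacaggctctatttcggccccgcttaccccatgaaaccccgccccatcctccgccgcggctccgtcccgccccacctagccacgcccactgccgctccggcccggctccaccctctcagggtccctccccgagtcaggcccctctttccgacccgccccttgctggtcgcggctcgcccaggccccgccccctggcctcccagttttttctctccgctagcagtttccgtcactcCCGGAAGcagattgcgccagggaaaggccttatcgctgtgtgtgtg

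CCAATCAGG stood in 15 of the 25 promoters of the ZNF653 to ZNF791 cluster and in 1.2% of all 27305 promoters of the table. GTCACTCAG stood in 14 of the 25 and in 0.535% of all promoters, and 8 of the 25 held both. Of the 25 promoters, 21 held at least 1 of the words, and those of ZNF653, ZNF439, ZNF442 and ZNF799 held neither. Both words were also frequent in the cluster from ZNF101 to ZNF726, with CCAATCAGG in 25 and GTCACTCAG in 20 of 28 promoters, and the median log2(fold change) of that cluster was 0.0022 in Acute 1 h and 0.08 in Chronic 1 h at 1 mM. Outside the clusters starting at ZNF554, ZNF653 and ZNF101, neither word stood in a member's promoter. The octamer was found in 8 of the 25 promoters (1.8% of all promoters), and CCGGAAG in 2 of the 25 against 21 of 33 in the ZNF175 to ZNF331 cluster, 32 of 52 in the ZNF628 to ZNF446 cluster and 10.7% of all promoters. The cyclic AMP response element TGACGTCA was in none of the 25 and in 1.98% of all promoters, and the AP-1 word TGANTCA was in 1 of the 25 and in 7.76% of all. The GC box GGGCGG was in 24 of the 25 and in 44.6% of all, and it lay within a few bases of CCAATCAGG in 12 promoters of the table. A match is a description of the letters in these windows and says nothing of binding.

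Most members were expressed at low levels in these cultures. Over the 12 control libraries the median member had a mean of 9.63 TPM, with 212 members at 1 TPM or more, 116 at 10 TPM or more and 19 under 0.1 TPM. The highest were ZNF428, ZNF358, ZNF146, ZNF579 and ZNF580. ZNF428 had 421, 404 and 397 TPM in PBS of the 1 mM experiment and 357, 318 and 313 TPM in ascorbic acid. ZNF146, a protein made almost wholly of zinc fingers, had 125, 127 and 134 TPM in the same PBS cultures and 96.2, 91.6 and 92.2 TPM in ascorbic acid. In the fits of all libraries none of these 5 genes passed the test in any comparison. Without Acute 24 h replicate 1 of the 1 mM experiment, a library that stands apart, ZNF428 rose (0.24) and ZNF146 (-0.22) and ZNF579 (-0.26) fell in Acute 1 h, and ZNF358 (0.24) and ZNF580 (0.24) rose in Acute 24 h. Exons of the members had a median GC content of 42.4%, against 44.6% in the 264 numbered ZNF genes of other chromosomes and 48.9% in the other protein-coding genes. Reads of the read-through genes ZNF559-ZNF177, ZNF625-ZNF20 and ZNF816-ZNF321P overlap those of their parts, and values of these genes are uncertain for that reason, as are those of near-identical neighbours, although 93.07% to 96.56% of exon reads mapped uniquely.

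Apart from quinpirole replicate 1, libraries held 5755919 to 27702963 exon reads (median 11516406), of which 30507 to 113887 fell on the members. In a library 3 reads on a gene of the members' median exon length were worth 0.0826 to 0.380 TPM, a limit that covers counting error only. Quinpirole replicate 1 held 137051 exon reads and had 96.7% of its reads in introns, so it carries little information. Acute 24 h replicate 1 of the 1 mM experiment gave 7753 reads per 1000000 exon reads against 4426 and 4615 in replicates 2 and 3. In the 1 µM experiment, PBS replicate 2, Acute 1 h replicate 2, Chronic 1 h replicate 2 and Acute 24 h replicate 1 had over 10% of exon reads on mitochondrial genes (10.3% to 12.8%). So had 5 Day replicate 2 (12.1%) and quinpirole replicate 2 (11.6%). Counts of calls in most comparisons at 1 mM and 1 µM are given with and without the libraries concerned. The dose difference is not given without those of the 1 µM experiment, nor SKF82958 without quinpirole replicate 1 in the fit. All 11 fixed striatal neuron markers were detected in PBS of the 1 mM experiment, with a summed level of 138 to 157 TPM, against 67.7 to 84.1 TPM in PBS of the 1 µM experiment and 137 to 149 TPM in ascorbic acid, where DRD1 lay under 1 TPM. The 3 pluripotency markers lay under 1 TPM in every group without quinpirole replicate 1. Of the interneuron markers, NKX2-1 and LHX6 lay under 1 TPM in nearly every group, while SST was detected in most. SST had 33.8, 59.6 and 61.6 TPM in PBS of the 1 mM experiment and 27.6, 25.6 and 18.9 TPM in ascorbic acid. In PBS of the 1 µM experiment it had 3.06, 2.74 and 3.32 TPM. In such mixed cultures fewer cells of a type and less RNA per cell cannot be told apart.

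The share of exon reads on the 246 genes changed little at 1 mM 1 h after a single exposure and was higher after repeated exposure. It was 4226 to 4300 reads per 1000000 exon reads in PBS, 4153 to 4196 in Acute 1 h and 4953 to 5041 in Chronic 1 h, so Chronic 1 h overlapped with neither. In the 1 µM experiment PBS lay at 4399 to 4615, Acute 1 h at 4985 to 6358, Chronic 1 h at 5030 to 5751 and Chronic 24 h at 4018 to 4283. The time course ran the other way, with 4317 ± 79.7 (SD, n = 3) in ascorbic acid, 3818 ± 113 (SD, n = 3) at 2 Day, 3643 ± 190 (SD, n = 3) at 3 Day, 3918 ± 11.0 (SD, n = 3) at 4 Day and 4018 ± 261 (SD, n = 2) at 5 Day. Water and SKF82958 did not differ beyond their spread, at 3631 ± 132 and 3736 ± 36.1 (SD, n = 3 each). These shares are over all exon reads and depend on the other genes in the library as well as on the members.

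**Figure D1:**
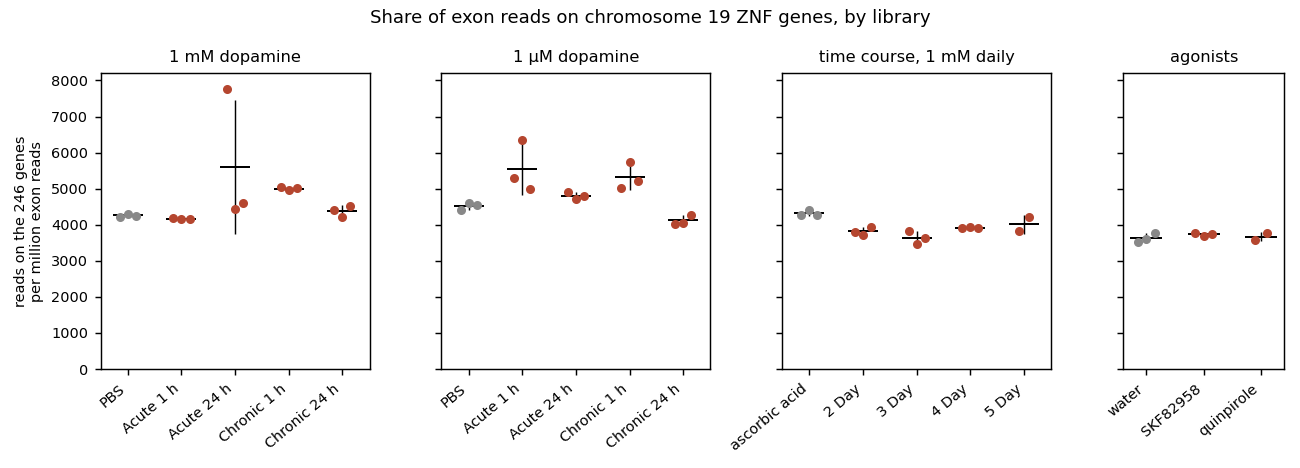
Exon reads on the 246 chromosome 19 ZNF genes, in reads per 1000000 exon reads, for each library (points), with the group mean (line) and SD (bar); quinpirole replicate 1 is left out. Acute 24 h replicate 1 at 1 mM stands apart at 7753, Chronic 1 h lies above PBS at both doses, and the libraries of 2 Day to 5 Day lie below those of ascorbic acid.

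Single genes were compared over all genes of a table with edgeR's quasi-likelihood test on exon reads, fitted on all groups of an experiment, and a gene was called at an adjusted p under 0.05 over all genes tested. The stricter DEG rule also asked for a log2(fold change) of 1 or more in size and 1 TPM or more as the mean of a group. Members that passed the filter on low counts numbered 224 in the 1 mM experiment, 218 in the 1 µM experiment, 213 in the time course and 211 in the agonist experiment. Over the 14 comparisons with a control, 87 of the 224 members tested were called at least once, 8 of them in both directions. Groups without overlap were common among all genes. In exon reads scaled to library size they made up 53.3%, 35.7% and 41.6% of the genes tested at 1 mM Acute 1 h, Acute 24 h and Chronic 1 h and 54% between Chronic 1 h and Acute 1 h. At 1 µM the same shares were 20.2%, 28.4%, 20.7% and 15.5%, and from 2 Day to 5 Day they were 29.6%, 31%, 32% and 31.4%.

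At 1 h after a single exposure to 1 mM dopamine, 8 of 224 members rose and 17 fell, among them ZNF83, ZNF382, ZNF540, ZNF419 and ZNF160. Of all genes tested 16% were called, 8.04% higher and 7.94% lower, against 3.57% and 7.59% of the members. ZNF83 had 45.0, 48.7 and 37.6 TPM in PBS and 24.2, 21.4 and 21.4 TPM in Acute 1 h, a log2(fold change) of -0.90 (adjusted p = 0.00123, SE 0.137). The ZNF83 groups did not overlap, and the lowest PBS library lay well above all 3 dopamine libraries. ZNF382, a KRAB repressor known as a candidate tumour suppressor, had 15.0, 16.3 and 16.5 TPM in PBS and 8.09, 8.43 and 8.47 TPM in Acute 1 h, a log2(fold change) of -0.87 (adjusted p = 0.00296, SE 0.153). ZNF540 went from 14.7, 14.5 and 15.5 TPM to 9.85, 8.45 and 8.03 TPM, a log2(fold change) of -0.70 (adjusted p = 0.0033, SE 0.125). Both genes had groups that were tight and apart. ZNF160 had 37.9, 34.4 and 30.9 TPM in PBS and 23.3, 17.7 and 18.1 TPM in Acute 1 h, a log2(fold change) of -0.74 (adjusted p = 0.00592, SE 0.149), and ZNF224, a KRAB repressor of the aldolase A gene, fell from 21.3, 22.4 and 22.6 TPM to 13.3, 12.4 and 15.2 TPM. Of these 5 genes, 4 lie on chromosome 19 at 52594060-52690496 (ZNF83), 36604817-36634114 (ZNF382), 37551406-37614179 (ZNF540) and 53066606-53103436 (ZNF160), and ZNF224 lies in the ZNF575 to ZNF296 cluster.

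In the fit of all libraries, fewer members rose at the same time. Without Acute 24 h replicate 1 in the fit many more members were called, in similar numbers each way. In that fit 19.9% of all genes were called higher and 19.9% lower. ZNF551 had 11.99, 12.7 and 12.5 TPM in PBS and 18.1, 20.5 and 17.4 TPM in Acute 1 h, a log2(fold change) of 0.66 (adjusted p = 0.00149, SE 0.102). ZNF93, which binds LINE-1 elements, rose by 0.62 on the log2 scale (adjusted p = 0.0111, SE 0.141), from 11.3, 11.1 and 11.1 TPM to 15.5, 17.6 and 16.1 TPM. In both genes every dopamine library lay above every PBS library. ZNF787 (0.45) and ZNF587B (0.99) also rose. The DEG rule was met by 3 members (4.1% of all genes), ZNF829 lower and ZNF878 and ZNF709 higher. The median log2(fold change) over the 224 members was 0.01, with 114 higher and 110 lower, and its sign turned with the scaling. The numbered ZNF genes of other chromosomes had 11 that rose and 22 that fell of 239, with a median of -0.02.

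Introns gave another picture of the same libraries. Counted over intron reads, which come largely from unspliced RNA, 89 members were called higher and 21 lower of 240 in Acute 1 h, with a median of 0.34 (all genes, 23.1% higher and 22.1% lower). Of 220 members with both values, 74 were lower in exon reads and higher in intron reads. ZNF83 was higher over introns (0.60, adjusted p = 0.00234) while its exon reads fell, ZNF419 was higher without passing the test (0.62, adjusted p = 0.107), ZNF540 stood at 0.01, and ZNF160 fell over introns as well (-0.52, adjusted p = 0.0366). Introns took 12.3% to 13.2% of all gene reads in Acute 1 h and 19.5% to 21.8% in PBS, and the part of that shift in these values was not tested. Across the 220 members the exon and intron log2(fold change) had r = 0.47 and rho = 0.377, over genes that share libraries.

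The 26 genes from ZNF653 to ZNF791 were higher in level 1 h after 1 mM dopamine. Their summed TPM was 291, 283 and 282 in PBS, 424, 438 and 437 in Acute 1 h, 449, 446 and 468 in Chronic 1 h, and 294, 269 and 297 in Chronic 24 h. Acute 24 h gave 1610 in replicate 1 and 312 and 334 in replicates 2 and 3. The 2 groups taken 1 h after dopamine thus lay above PBS in every library, and Chronic 24 h lay close to PBS on both sides. In 2 other clusters the summed level also lay above PBS in every library of both groups. It was 42.8 to 47.4 TPM in PBS, 49.9 to 51.99 TPM in Acute 1 h and 63 to 66.9 TPM in Chronic 1 h for ZNF554 to ZNF77, and 583 to 605 TPM, 622 to 635 TPM and 641 to 656 TPM for ZNF575 to ZNF296. Most genes of these 2 clusters were nevertheless lower at Acute 1 h. For ZNF554 to ZNF77 the median log2(fold change) was -0.28 with 3 of 5 lower. For ZNF575 to ZNF296 it was -0.05 with 12 of 21 lower, 2 called lower and 0 called higher. At Chronic 1 h 4 of 5 and 16 of 21 were higher. ZNF428, the member with the highest level, lies in the second cluster.

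At Acute 1 h 22 of the 26 genes were higher, with a median log2(fold change) of 0.53, and 3 were called, ZNF709, ZNF878 and ZNF136. Left out of the fit, Acute 24 h replicate 1 changed that count: 14 of the 26 rose and 1 fell, with a median of 0.52, where 19.9% of all genes rose and 19.9% fell (39.8% called). ZNF442 had 2.08, 1.88 and 1.89 TPM in PBS, 7.50, 7.51 and 8.42 TPM in Acute 1 h, 50.2, 2.02 and 2.26 TPM in Acute 24 h, 7.41, 6.91 and 8.78 TPM in Chronic 1 h, and 2.81, 1.70 and 1.96 TPM in Chronic 24 h. Its log2(fold change) at Acute 1 h was 2.07 with an adjusted p of 0.128 in all 15 libraries and 2.05 (adjusted p = 6.29e-07, SE 0.168) without the 1 library. ZNF625 had 9.06, 9.68 and 9.71 TPM in PBS and 31.0, 28.7 and 23.9 TPM in Acute 1 h, with adjusted p values of 0.187 and 7.35e-07 in the same 2 fits. ZNF844 had 12.4, 10.47 and 9.27 TPM in PBS and 29.7, 27.6 and 27.1 TPM in Acute 1 h, with adjusted p values of 0.0686 and 1.73e-07. In these 3 genes, which were chosen after their values were seen, Acute 1 h and Chronic 1 h lay above PBS without overlap.

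ZNF709, called in both fits, had 6.71, 8.15 and 4.99 TPM in PBS and 19.5, 19.2 and 17.3 TPM in Acute 1 h, a log2(fold change) of 1.56 (adjusted p = 0.0125, SE 0.365). ZNF136 went from 9.30, 8.36 and 9.52 TPM to 12.3, 11.3 and 11.5 TPM, and ZNF878 from 0.900, 0.692 and 0.994 TPM to 2.89, 3.27 and 1.77 TPM. Both were again higher in Chronic 1 h, at 15.5, 13.1 and 13.1 TPM for ZNF136 and 2.31, 4.06 and 2.53 TPM for ZNF878. Over intron reads 16 of the 26 genes were called higher and 1 lower in Acute 1 h, with a median of 1.00; ZNF442 (1.92), ZNF625 (2.74) and ZNF709 (1.27) were among the former, and ZNF844 stood at -0.04. At 1 µM the cluster's median was 0.11 in Acute 1 h and 0.18 in Chronic 1 h, and in the time course its medians were 0.08, -0.19, 0.04 and 0.11 from 2 Day to 5 Day.

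**Figure D2:**
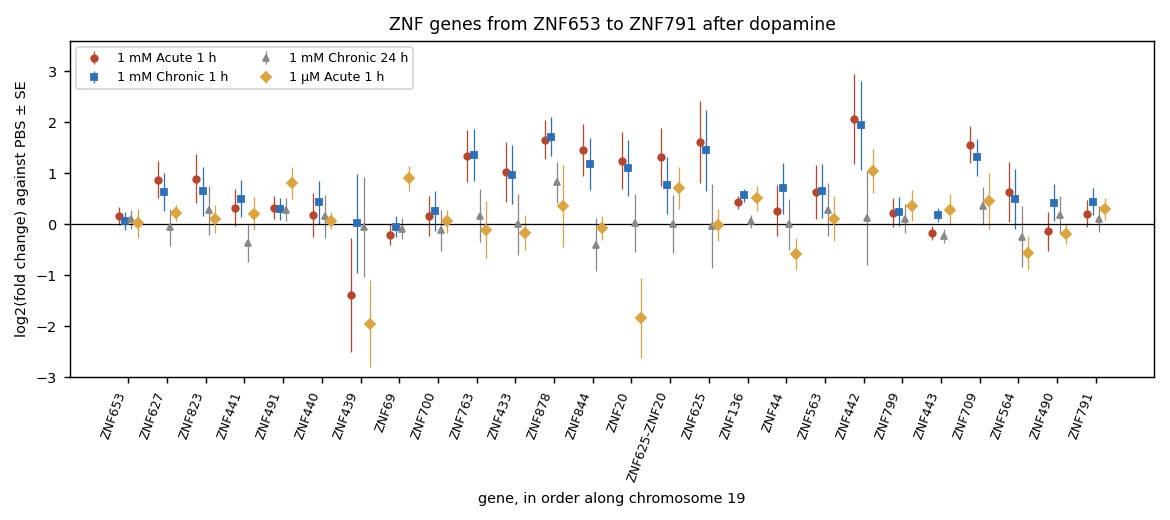
Log2(fold change) against PBS with its SE for each gene of the ZNF653 to ZNF791 cluster, in order along the chromosome, for 1 mM Acute 1 h, 1 mM Chronic 1 h, 1 mM Chronic 24 h and 1 µM Acute 1 h. ZNF442, ZNF625, ZNF878, ZNF709 and ZNF844 are high in both 1 mM groups taken after 1 h and lower in Chronic 24 h and in 1 µM Acute 1 h.

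**Figure D3:**
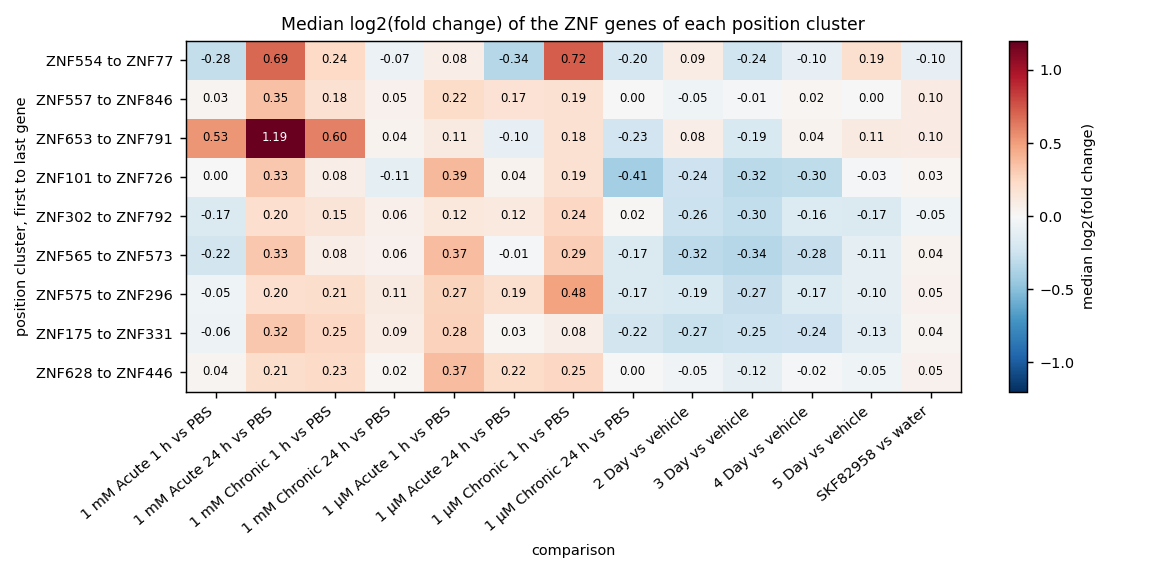
Median log2(fold change) of the members of each position cluster with at least 5 genes (rows) in 13 comparisons with a control (columns), printed in each cell and shown by colour. Quinpirole is left out. The ZNF653 to ZNF791 row is the highest of the rows at 1 mM Acute 1 h (0.53), Chronic 1 h (0.60) and Acute 24 h (1.19, with replicate 1 in the fit), and most clusters are below 0 from 2 Day to 4 Day.

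At 24 h after the single 1 mM exposure, 26 members rose and 6 fell of 224, where 15.5% of all genes were called (8.38% higher and 7.09% lower). With only the 2 groups compared in the fit no member was called, and the share of all genes called in that fit is not given here. ZNF561, ZNF473 and ZNF347 rose and ZNF83, ZNF160, ZNF540 and ZNF382 were still below PBS. The size of the rise rested largely on replicate 1. In that library 93 of 211 members were more than 2-fold above the mean of replicates 2 and 3, against 15.5% of 16590 genes, with a median fold of 1.79 for the members, 1.59 for numbered ZNF genes of other chromosomes, 4.59 for the ZNF653 to ZNF791 cluster and 1.13 for all genes. ZNF428, the member with the highest level, went the other way, with 181 TPM in replicate 1 and 451 and 445 TPM in replicates 2 and 3. Mitochondrial genes took 0.826% of exon reads in replicate 1, the lowest share in the experiment.

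Without replicate 1, 18 members rose and 7 fell (22.3% of all genes called, 11.1% each way) and the median log2(fold change) dropped from 0.36 to 0.07. ZNF473, which acts in the processing of histone pre-mRNA, had 12.8, 13.0 and 12.4 TPM in PBS and 57.9, 20.3 and 23.1 TPM in Acute 24 h. It rose with replicate 1 (log2(fold change) 1.24, SE 0.267, adjusted p = 0.0128) and without it (0.72, SE 0.131, adjusted p = 0.00199). ZNF160 had 30.7, 19.1 and 20.4 TPM in Acute 24 h, below every PBS library in each replicate, and fell in both fits (-0.69 and -0.85). ZNF442 at 0.08 (adjusted p = 0.796) was no longer called without replicate 1, and ZNF625 dropped from 3.03 to 0.47 (adjusted p = 0.0356).

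After repeated 1 mM exposure, 174 of 224 members stood higher at 1 h, with a median log2(fold change) of 0.20, but only 6 passed the test, all of them higher, where 2.08% of all genes were called (1.27% higher). The 6 were ZNF551, ZNF701, ZNF547, ZNF350, ZNF878 and ZNF136. ZNF551 had 20.6, 20.4 and 20.97 TPM, a log2(fold change) of 0.70 (adjusted p = 0.0041, SE 0.102), and ZNF547 had 13.2, 13.6 and 13.0 TPM against 5.46, 6.81 and 6.22 TPM in PBS, a log2(fold change) of 1.06 (adjusted p = 0.0157, SE 0.193). ZNF350, a KRAB protein that binds BRCA1, had 14.4, 15.1 and 15.4 TPM against 10.4, 10.3 and 8.51 TPM. None of these groups overlapped with PBS. In the fit without Acute 24 h replicate 1, 64 members rose and 2 fell (9.25% and 9.1% of all genes, 18.4% called), 18 of the former in the ZNF653 to ZNF791 cluster. Astrocyte markers summed to 193 to 204 TPM in Chronic 1 h and 114 to 150 TPM in PBS, and progenitor markers to 2470 to 2650 TPM and 2870 to 3370 TPM. The progenitor sum was mostly VIM, with 1230, 1160 and 1340 TPM in Chronic 1 h and 1810, 1650 and 1420 TPM in PBS. NES, also a progenitor marker, went the other way, with 317, 391 and 356 TPM in Chronic 1 h and 256, 220 and 244 TPM in PBS. The part of these markers in the values of the members was not tested.

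Of the genes that had fallen after a single exposure, ZNF83, ZNF160, ZNF382 and ZNF540 were back within or near the PBS range 1 h after the last of the repeated exposures. ZNF83 had 41.2, 39.3 and 38.3 TPM in Chronic 1 h, ZNF160 37.8, 35.3 and 36.2 TPM, ZNF382 16.1, 13.3 and 14.9 TPM and ZNF540 15.3, 13.7 and 16.3 TPM. Chronic 1 h and Acute 1 h did not overlap in any of the 4. ZNF714, which fell in Acute 1 h (-0.38), was still lower than PBS in Chronic 1 h at -0.19, with an adjusted p of 0.224 in all libraries and 0.0289 without Acute 24 h replicate 1. Tested directly, 21 members were higher and 2 lower in Chronic 1 h than in Acute 1 h (11.3% of all genes called, 5.37% higher and 5.91% lower). Over intron reads the balance turned, with 16 members higher and 48 lower. The share of all genes called in that intron test is not given here, so the split is not a result about the members. Introns took 12.3% to 13.2% of all gene reads in Acute 1 h and 20.6% to 20.9% in Chronic 1 h. ZNF419 differed by 0.58 (adjusted p = 0.00185, SE 0.095), ZNF540 by 0.67, ZNF83 by 0.72 and ZNF160 by 0.78 on the log2 scale, and ZNF93 (-0.50) and ZNF787 (-0.40) were lower. The clusters from ZNF565 to ZNF573 and from ZNF175 to ZNF331 held 5 and 7 of the 21. Without Acute 24 h replicate 1 in the fit, 91 members were higher and 8 lower (17.4% and 16.6% of all genes). The culture age differs between these 2 groups and cannot be told apart from the number of exposures.

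At 24 h after the last of the repeated 1 mM exposures no member was called by edgeR, where 0.663% of all genes were. At an unadjusted p under 0.05 there were 8, DESeq2 called 0, and the fit without Acute 24 h replicate 1 called 5 (3 higher and 2 lower, 8.48% of all genes). The median log2(fold change) was 0.03.

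At 1 µM, the members called over exon reads 1 h after dopamine were all higher in the fit of the whole experiment. Of 218 members 26 rose and none fell by edgeR in Acute 1 h, where 5.77% of all genes were called (3.25% higher and 2.52% lower). With only the 2 groups compared in the fit no member was called, and the share of all genes in that fit is not given here. Over intron reads 5 members rose and 10 fell (12.8% of all genes called, 3.76% higher and 9.04% lower). By the DEG rule 13 rose (2.41% of all genes met it). The median log2(fold change) was 0.30, with 164 higher, against 0.19 for numbered ZNF genes of other chromosomes, of which 15 rose and 3 fell. ZNF181 had 7.06, 5.26 and 8.49 TPM in PBS and 20.4, 24.0 and 15.6 TPM in Acute 1 h, a log2(fold change) of 1.60 (adjusted p = 0.00123, SE 0.24). ZNF587B had 4.20, 1.504 and 2.12 TPM and 8.51, 11.0 and 10.1 TPM (2.01, SE 0.339, adjusted p = 0.00298), and ZNF547 3.13, 1.31 and 5.19 TPM and 13.2, 9.36 and 13.9 TPM (1.98, SE 0.346, adjusted p = 0.00359). In each of these genes the dopamine libraries lay above all PBS libraries, and PBS replicate 2 was the lowest of the 6.

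Members with a known role were among those that rose. ZNF473 had 11.1, 9.43 and 10.4 TPM in PBS and 19.5, 15.2 and 21.1 TPM in Acute 1 h (0.85, SE 0.166, adjusted p = 0.00735). ZNF274, which brings SETDB1 to ZNF genes themselves, had 15.8, 7.07 and 15.3 TPM and 22.4, 15.6 and 20.4 TPM (0.67, SE 0.184, adjusted p = 0.0451), so that 1 dopamine library lay within the PBS range. ZNF93 had 14, 11.3 and 13.9 TPM and 24.4, 32.7 and 19.1 TPM (1.03, SE 0.28, adjusted p = 0.0449), while ZNF91, which binds SVA elements, was not called at 1 µM. Over intron reads ZNF473 (-0.62) and ZNF274 (-0.20) were lower, not higher. An alternative chosen after seeing the data left out the 4 libraries of the 1 µM experiment with over 10% mitochondrial reads. In it 28 members rose and 2 fell with a median of 0.22 (14% of all genes called).

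After repeated 1 µM exposure 14 members rose and none fell by edgeR at 1 h, where 2.58% of all genes were called (1.75% higher and 0.834% lower), and 9 met the DEG rule (1.11% of all genes). The median was 0.24 with 165 of 218 higher. With only the 2 groups compared in the fit no member was called, again without a share of all genes to set it against. ZNF473 had 24.4, 16.5 and 23.4 TPM, a log2(fold change) of 1.08 (adjusted p = 0.00352, SE 0.165), and ZNF547 10.45, 11.4 and 11.0 TPM, a log2(fold change) of 1.89 (adjusted p = 0.00942, SE 0.344). ZNF468 (1.21), ZNF134 (0.81), ZNF587B (1.64), ZNF181 (1.13) and ZNF470 (1.41) rose as well. Without the 4 libraries named above the count was 32 higher and 5 lower (9.86% of all genes called). Chronic 1 h and Acute 1 h differed in 3 members, all lower in Chronic 1 h (1.2% of all genes called, 0.556% higher and 0.647% lower): ZNF780B by 0.97, ZNF154, a gene often silenced by methylation in tumours, by 0.78, and ZNF546 by 0.90 on the log2 scale.

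The 24 h groups at 1 µM held few calls. In Acute 24 h 2 members rose and 2 fell (3.31% of all genes called, 1.4% higher and 1.91% lower). ZNF160 had 33.1, 34.0 and 39.9 TPM in PBS, 22.4, 23.9 and 20.4 TPM in Acute 1 h and 15.3, 17.9 and 19.9 TPM in Acute 24 h, and it fell at 24 h (-1.08, SE 0.214, adjusted p = 0.0143). All 6 dopamine libraries lay below all 3 PBS libraries. ZNF473 stayed high, at 17.8, 17.5 and 18.2 TPM (0.74, SE 0.165, adjusted p = 0.0254), and ZNF814 rose while ZNF264 fell. In Chronic 24 h edgeR called no member, and 0% of all genes, 10 members had an unadjusted p under 0.05, DESeq2 called 0, and 155 of 218 members were lower with a median of -0.16.

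The doses were compared through the difference of their log2(fold change) at Acute 1 h, over the 30 libraries of both experiments. Of 225 members tested 6 differed, all lower at 1 mM than at 1 µM, where 2.01% of all genes differed (1.09% higher and 0.919% lower). The median difference was -0.36, with 163 lower at 1 mM, and -0.19 over numbered ZNF genes of other chromosomes. ZNF382 went down at 1 mM, as given above, and from 13.9, 12.9 and 12.5 TPM to 16.03, 16.03 and 15.2 TPM at 1 µM, a difference of -1.13 (adjusted p = 0.0108, SE 0.236). ZNF540 had 9.73, 8.88 and 10.2 TPM in PBS and 15.5, 10.1 and 13.3 TPM in Acute 1 h at 1 µM, a difference of -1.10 (adjusted p = 0.0284, SE 0.266). For both genes the 2 doses stood on opposite sides of their own PBS, with 1 library of ZNF540 at 1 µM within the PBS range.

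ZNF181 and ZNF470 differed in another way. ZNF181 went from 11.1, 11.1 and 11.8 TPM to 14.1, 15.9 and 14.8 TPM at 1 mM, a smaller step than at 1 µM, with a difference of -1.11 (adjusted p = 0.0409, SE 0.287). ZNF470 stayed at 4.04, 3.91 and 3.89 TPM in PBS and 4.11, 4.30 and 3.91 TPM in Acute 1 h at 1 mM, and went from 2.07, 1.32 and 2.59 TPM to 4.10, 7.77 and 6.63 TPM at 1 µM, a difference of -1.57 (adjusted p = 0.0455, SE 0.415). ZNF211 differed by -0.83 (adjusted p = 0.0387, SE 0.214), and the sixth gene, ZNF208, had too few reads for a fold. Over intron reads the differences of ZNF382 (0.69), ZNF540 (1.01), ZNF211 (0.30) and ZNF181 (0.47) had the opposite sign, and the median over the members was 0.40. Across 218 members the log2(fold change) of the 2 doses, which have separate controls, had r = 0.192 and rho = 0.307 at Acute 1 h and r = 0.345 and rho = 0.415 at Chronic 1 h.

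**Figure D4:**
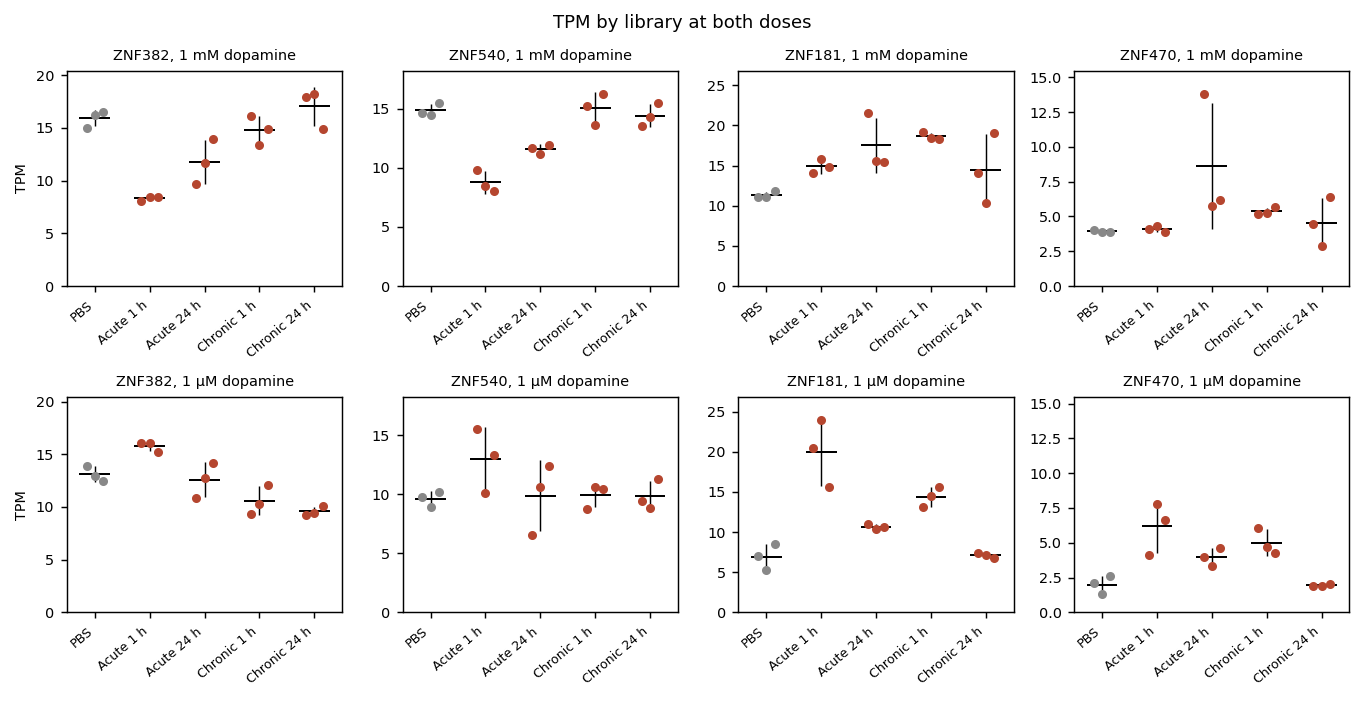
TPM of ZNF382, ZNF540, ZNF181 and ZNF470 in each library (points) at 1 mM (upper row) and 1 µM (lower row), with the group mean (line) and SD (bar). By group mean ZNF382 and ZNF540 are lowest in Acute 1 h in the upper row and highest in Acute 1 h in the lower row, where ZNF181 and ZNF470 are highest in Acute 1 h too.

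In the time course the members were lower, by small amounts, after 2 to 4 days of dopamine. At 2 Day 1 member rose and 16 fell of 213 (3.88% of all genes called, 1.89% higher and 1.99% lower), at 3 Day 1 rose and 15 fell (7.37% called, 4.77% higher and 2.6% lower), at 4 Day 3 rose and 7 fell (4.38% called, 2.58% higher and 1.8% lower) and at 5 Day 2 rose and 2 fell (1.63% called). No member met the DEG rule at any day, where 0.495%, 1.35%, 0.507% and 0.286% of all genes did. The median log2(fold change) was -0.19, -0.22, -0.16 and -0.06, with 150, 191, 149 and 130 of 213 members lower. Numbered ZNF genes of other chromosomes had medians of -0.11, -0.13, -0.12 and -0.06, and 15, 24, 13 and 4 of 235 fell. The 4 comparisons share the ascorbic acid libraries, so they are not independent of each other.

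ZNF616 was lower at every day and ZNF628 higher at every day. ZNF616 had 19.4, 20.4 and 17.9 TPM in ascorbic acid, 9.65, 9.92 and 11.2 TPM at 2 Day, 12.7, 10.0 and 13.4 TPM at 3 Day, 13.0, 12.4 and 11.1 TPM at 4 Day and 10.1 and 12.6 TPM at 5 Day. Its log2(fold change) was -0.77 (adjusted p = 0.000877, SE 0.105) at 2 Day and -0.64 (adjusted p = 0.0155, SE 0.119) at 5 Day, and all 11 dopamine libraries lay below the 3 controls. ZNF628 had 12.01, 12.7 and 11.8 TPM in ascorbic acid, 17.9, 19.4 and 19.7 TPM at 2 Day, 17.4, 19.7 and 19.5 TPM at 3 Day, 21.6, 22.4 and 20.9 TPM at 4 Day and 11.8 and 22.4 TPM at 5 Day. The first 3 days lay above the controls in every library, with a log2(fold change) of 0.86 (adjusted p = 0.000923, SE 0.119) at 4 Day. At 5 Day 1 of the 2 libraries lay within the control range in TPM although the gene was called (0.60, SE 0.135, adjusted p = 0.0343). That library, replicate 2, had 12.1% of exon reads on mitochondrial genes and a summed member level of 2474 TPM. Replicate 3 had 5.70% and 3397 TPM. In exon reads scaled to library size ZNF628 at 5 Day did not overlap with ascorbic acid. Over intron reads ZNF628 was lower at 2 Day (-0.37) and 4 Day (-0.41).

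ZNF615 fell at 2, 3 and 4 Day (-0.63, -0.60 and -0.69). It had 12.4, 12.9 and 14.9 TPM in ascorbic acid and 6.45 to 9.78 TPM in the 11 dopamine libraries, with no overlap. ZNF441, a gene of the ZNF653 to ZNF791 cluster, rose at 4 Day (0.45, SE 0.118, adjusted p = 0.0418) and 5 Day (0.69, SE 0.13, adjusted p = 0.0159), with 15.7, 15.4 and 12.5 TPM in ascorbic acid and 18.9 and 24.1 TPM at 5 Day. ZNF845 fell at 3 Day, from 11.5, 11.7 and 11.6 TPM to 7.84, 6.54 and 7.12 TPM (-0.59, SE 0.0959, adjusted p = 0.00208). ZNF780B, ZNF431 and ZNF324B fell at 2 Day, ZNF211 and ZNF571 at 3 Day, ZNF607 and ZNF234 at 4 Day and ZNF324B again at 5 Day, while ZNF134 rose at 4 Day (0.26). By cluster the lower values were in ZNF565 to ZNF573 (medians -0.32, -0.34 and -0.28 from 2 Day to 4 Day), ZNF101 to ZNF726 (-0.25, -0.32 and -0.31) and ZNF175 to ZNF331 (-0.27, -0.25 and -0.24). Mesenchymal markers summed to 167 to 223 TPM in ascorbic acid and 214 to 443 TPM from 2 Day to 5 Day, with all 5 detected, and striatal markers to 137 to 149 TPM and 88.8 to 136 TPM. Their part in the lower values of the members was not tested.

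**Figure D5:**
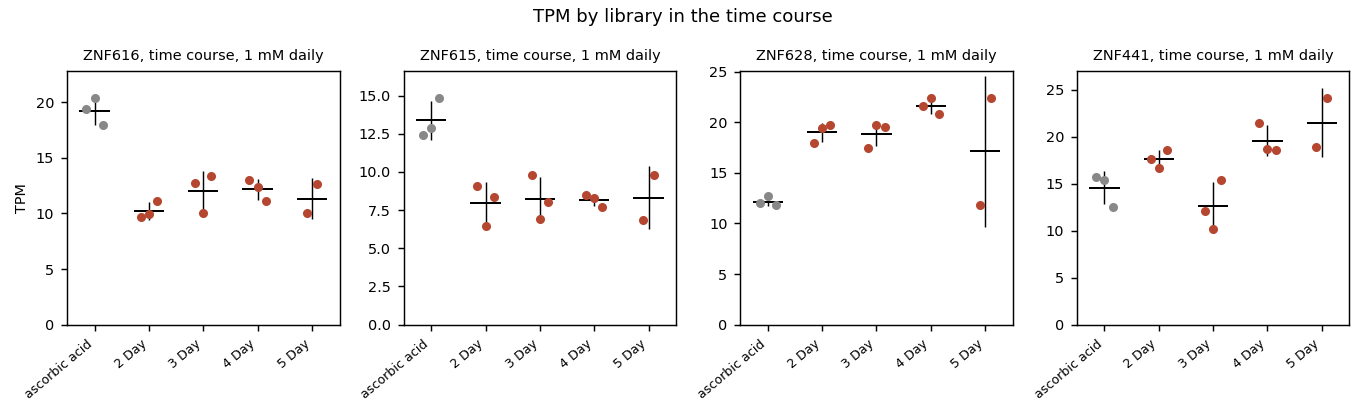
TPM of ZNF616, ZNF615, ZNF628 and ZNF441 in each library of the time course (points), with the group mean (line) and SD (bar). ZNF616 and ZNF615 lie below ascorbic acid at every day, and ZNF628 lies above it from 2 Day to 4 Day. At 5 Day 1 of the 2 libraries of ZNF628 lies at the control level, replicate 2, which had 12.1% of exon reads on mitochondrial genes.

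The agonists gave no member call by edgeR, in a fit for both agonists that held quinpirole replicate 1. With SKF82958 0.0124% of all genes were called (2 genes), 1 of 211 members had an unadjusted p under 0.05, DESeq2 called 0, and the median log2(fold change) was 0.05. With quinpirole 0% of all genes were called, 2 members had an unadjusted p under 0.05 and DESeq2 called 2, with quinpirole replicate 1 in the fit. ZNF616 had 10.7, 11.1 and 12.6 TPM in water and 11.7, 11.4 and 11.95 TPM with SKF82958, and ZNF628 had 23.7, 23.8 and 19.7 TPM and 19.8, 20.8 and 23.9 TPM. The groups overlapped for both genes.

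Counted over all comparisons with a control, ZNF160, ZNF616 and ZNF615 were each lower in 4, and ZNF473, ZNF628 and ZNF547 each higher in 4. Comparisons of 1 experiment share their controls. ZNF160 was lower at 1 mM Acute 1 h and Acute 24 h, at 1 µM Acute 24 h and at 2 Day (-0.34). Of the 12 members fixed for a known role, ZNF93, ZNF274, ZNF473, ZNF224 and ZNF350 were called in at least 1 comparison, as given above. ZNF91, ZNF146, ZNF175, ZNF296, ZNF331, ZNF536 and ZNF675 were called in none of the fits of all libraries. Without Acute 24 h replicate 1 in the fit, ZNF175 (-0.40), ZNF331 (-0.34) and ZNF146 (-0.22) fell and ZNF536 (0.23) rose in 1 mM Acute 1 h, ZNF91 rose in Chronic 1 h (0.25), and ZNF675 was higher in Chronic 1 h than in Acute 1 h (0.24). ZNF536, a regulator of neuronal differentiation, had 38.4, 37.4 and 44.4 TPM in PBS and 44.4, 47.0 and 45.1 TPM in Acute 1 h at 1 mM. ZNF331, an imprinted gene, had 17.6, 18.6 and 15.4 TPM and 14.5, 13.2 and 11.9 TPM.

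Genes of the proteins that KRAB domains work through were called in some comparisons. Of 20 partner genes, 1 rose and 1 fell in 1 mM Acute 1 h (10% against 16% of all genes), DNMT3A, a DNA methyltransferase, by 0.30 (adjusted p = 0.014, SE 0.0724) and SETDB1 by -0.30 (adjusted p = 0.0225, SE 0.0809). HDAC1, a histone deacetylase, fell in Chronic 1 h (-0.70, SE 0.138, adjusted p = 0.0208) and in Chronic 24 h (-0.70, SE 0.139, adjusted p = 0.038). Compared with Acute 1 h, 5 partners (25% against 11.3% of all genes) were lower in Chronic 1 h at 1 mM, TRIM28 (-0.27), CBX5 (-0.62), CBX1 (-0.40), DNMT3A (-0.41) and HDAC2 (-0.34). At 1 µM SMARCAD1 rose and CHD3 fell in Acute 1 h, UHRF1 and DNMT1 rose and CHD3 fell in Acute 24 h (15% against 3.31% of all genes), and none was called in the chronic groups. In the time course only HDAC2 at 4 Day fell (-0.26), and no partner was called with the agonists. For scale, of 26 immediate early genes, the first to be switched on by neuronal activity, 21 rose in 1 mM Acute 1 h, 15 rose and 1 fell in Chronic 1 h and none was called in Chronic 24 h, and 13 rose and 2 fell in each 1 h group at 1 µM. From 2 Day to 5 Day 23, 21, 23 and 17 rose. With SKF82958, in the fit that holds quinpirole replicate 1, only ZFP36 was called, although 24 of the 26 genes were higher. Their median log2(fold change) with SKF82958 was 0.96, and 11 of the 26 had an unadjusted p under 0.05 by edgeR.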

How the data were processed

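Total RNA of hMSN-like cells was sequenced. The authors mapped reads with CLC Genomics Workbench to hg38 with Ensembl genes, and the deposited table of each library gives per gene the counts of reads on exons, uniquely mapped exon reads, introns and the whole gene, and TPM. Strand setting and sequencing provider per library are not given in the sources used here. The members and all lists were chosen with earlier results of these data known. Groups came from the labels. The sources used here do not say that RNA-seq replicates came from separate differentiations, so p-values measure only the spread between these samples, which may be technical. Exon counts were tested over all genes with edgeR 4.0.16 (R 4.3.3, limma 3.58.1; glmQLFit, TMM, filterByExpr with a minimum count of 10 and a minimum total of 15, Benjamini-Hochberg), all groups of an experiment in 1 fit, and a call was an adjusted p under 0.05. SE was the log2(fold change) divided by the root of F. On simulated counts for 1 mM Acute 1 h versus PBS over 17525 genes, 190 of 200 changed genes were recovered with 9 false calls. The simulation gave all genes the same spread, held no library that stands apart, and changed only well-covered genes by at least 1 on the log2 scale. It checks that the test runs correctly and does not measure recovery in the real libraries. No 2 libraries held identical values. TPM were used as deposited by the authors, for levels and not for tests. Depth was 5755919 to 27702963 exon reads without quinpirole replicate 1. Named members were 12 fixed for a known role, up to 4 in each direction per comparison with the smallest adjusted p among called genes without overlap between groups and with a mean of at least 1 TPM, the 5 highest in controls and the 5 called most often in 1 direction. Ties in the last were cut by mean TPM, which left out ZNF547. Genes named for their position cluster and further called genes were chosen after their values were seen. Alternatives were gene, unique and intron reads, DESeq2 1.42.0 and its size factors, library totals, no filter, only the groups compared, a replicate block, each replicate left out, and, added after seeing the data, 1 µM without the libraries over 10% mitochondrial. Promoters came from RefSeq (GRCh38.p14). Python 3.11.15, numpy 2.4.6, pandas 2.3.3 and matplotlib 3.10.9 were used.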

Additional observations from a re-analysis of the deposited data

Results flagged for a closer look

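The response 1 h after a single exposure differed between 1 mM and 1 µM dopamine, by a test of the difference itself, in 6 of 225 members. On the log2 scale the difference (1 mM minus 1 µM) was -1.13 for ZNF382, -1.10 for ZNF540, -0.83 for ZNF211, -1.11 for ZNF181 and -1.57 for ZNF470. The sixth gene, ZNF208, had too few reads for a fold. The doses were run as separate experiments, so the dose and the experiment cannot be told apart.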

How the results depend on the processing

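Of 737 values of single named genes under alternatives that leave out no single replicate, 575 kept direction and call, 140 kept direction only and 22 reversed, all 22 of them over intron reads. These were, at 1 mM, ZNF83 (0.60), ZNF419 (0.62) and ZNF540 (0.0114) in Acute 1 h, ZNF83 (0.75) and ZNF540 (0.46) in Acute 24 h, and ZNF419 (-0.61), ZNF540 (-0.20) and ZNF83 (-0.53) in Chronic 1 h against Acute 1 h. At 1 µM they were ZNF274 (-0.20), ZNF473 (-0.62) and ZNF470 (-0.0269) in Acute 1 h, ZNF473 (-0.061) in Acute 24 h, ZNF274 (-0.15) and ZNF473 (-0.26) in Chronic 1 h and ZNF546 (0.29) in Chronic 1 h against Acute 1 h. ZNF628 (-0.37) and ZNF324B (0.21) at 2 Day, ZNF628 (-0.41) at 4 Day and the dose differences of ZNF382 (0.69), ZNF540 (1.01), ZNF211 (0.30) and ZNF181 (0.47) complete the list. The cause was not tested.

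Counts of members called moved as follows, main values first. The share of all genes called is given above for only some of these alternatives. Where it is missing, a moved count is not by itself a result about the members. Acute 1 h at 1 mM, 25, gave 74 over total gene reads, 110 over intron reads, 99 with only the groups compared and 98 without Acute 24 h replicate 1. Acute 24 h, 32, gave 132, 103 and 54 over gene reads, intron reads and by DESeq2, 0 with only the groups compared and 15 with the replicate block. Chronic 1 h, 6, gave 2 over gene reads, 10 over unique reads, 17 by DESeq2, 79 with only the groups compared and 66 without Acute 24 h replicate 1. Chronic 24 h, 0, gave 5 without that library. Chronic 1 h against Acute 1 h, 23, gave 44, 64, 12, 116 and 99 over gene reads, over intron reads, with no filter, with only the groups compared and without that library, the intron calls being 16 higher and 48 lower against 21 and 2. At 1 µM, Acute 1 h, 26, gave 15 over intron reads (5 higher and 10 lower, against 26 higher and 0 lower) and 0 with only the groups compared. Acute 24 h, 4, gave 1 with no filter, 1 with only the groups compared, 2 with the replicate block and 10 without the libraries over 10% mitochondrial. Chronic 1 h, 14, gave 23 over gene reads, 27 by DESeq2, 0 with only the groups compared and 37 without the same libraries. Chronic 1 h against Acute 1 h, 3, gave 0 over intron reads, with no filter and with only the groups compared, 1 with DESeq2 size factors, 7 by DESeq2 and 9 without the same libraries. In the time course 2 Day, 17, gave 28, 9, 26, 36 and 31 over gene reads, over intron reads, with library totals, with no filter and with only the groups compared, and 10 with the replicate block. 3 Day, 16, gave 35, 4, 33 and 25 over gene reads, over intron reads, with library totals and with no filter. 4 Day, 10, gave 16 over gene reads, 16 over unique reads, 2 over intron reads, 16 by DESeq2, 23 with no filter and 43 with only the groups compared. 5 Day, 4, gave 2 over intron reads, 12 with no filter and 0 with only the groups compared. Quinpirole, 0, gave 2 by DESeq2, and the dose difference, 6, gave 31, 58, 14, 23 and 24 over gene reads, over intron reads, with library totals, by DESeq2 and without Acute 24 h replicate 1, with 42 of the intron calls higher and 16 lower against 0 and 6.

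Leaving out 1 replicate of the groups compared gave 15 to 20 at 1 mM Acute 1 h, 2 to 90 at Acute 24 h, 1 to 3 at Chronic 1 h, 0 to 0 at Chronic 24 h and 8 to 13 for Chronic 1 h against Acute 1 h. At 1 µM the ranges were 11 to 24, 0 to 3, 4 to 9, 0 to 0 and 0 to 3 in the same order. They were 2 to 16, 4 to 36, 3 to 5 and 0 to 6 from 2 Day to 5 Day and 0 to 0 with either agonist. Single replicates of the groups compared were not left out for the dose difference. Counts moved by over 1.5 times at 1 mM Acute 1 h without PBS replicate 2 or Acute 1 h replicate 2 (15 each), and at Acute 24 h without PBS replicate 1, 2 or 3 (3, 2 and 7) or its own replicate 2 or 3 (85 and 90). They did so for Chronic 1 h without any 1 of the 6 libraries (1 to 3), and for Chronic 1 h against Acute 1 h without Acute 1 h replicate 1, 2 or 3 (13, 9 and 8) or Chronic 1 h replicate 1, 2 or 3 (9, 11 and 12). At 1 µM this held for Acute 1 h without PBS replicate 1 or 3 (11 and 14) or its own replicate 1 or 2 (17 and 16), and for Chronic 1 h without any 1 of the 6 libraries (4 to 9). The counts of 4 at 1 µM Acute 24 h and 3 for Chronic 1 h against Acute 1 h went to 0 or 1 without any library of the groups compared other than PBS replicate 3 and Acute 1 h replicate 3. In the time course it held at 2 Day without its replicate 2 (2) or ascorbic acid replicate 1, 2 or 3 (6, 5 and 5), and at 3 Day without its replicate 1, 2 or 3 (36, 4 and 6) or ascorbic acid replicate 1, 2 or 3 (5, 6 and 8). It also held at 4 Day without any 1 of the 6 libraries (3 to 5) and at 5 Day without its replicate 2 (2) or ascorbic acid replicate 1, 2 or 3 (1, 0 and 1). Without either library of 5 Day, the lone library left was assumed to vary like the other groups.

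On average, same-numbered libraries deviated together little more than others or less (mean r of 0.00196, 0.0229, -0.0103 and -0.0248 in the 4 experiments). A mean over all pairs cannot exclude pairing in part of an experiment. At 1 µM the highest r was 0.446 in same-numbered pairs and 0.303 in the others. There replicate 2 of PBS, Acute 1 h and Chronic 1 h all had a high mitochondrial share (12.4%, 12.6% and 12.8%). Beside the counts above, the replicate block gave 24 for 25, 5 for 6 and 18 for 23 at 1 mM (Acute 1 h, Chronic 1 h, Chronic 1 h against Acute 1 h), 20 for 26, 13 for 14 and 2 for 3 at 1 µM, 15 for 16, 7 for 10 and 3 for 4 from 3 Day to 5 Day and 4 for 6 for the dose difference.

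The members' median log2(fold change) at 1 mM Acute 1 h turned from 0.01 to -0.02 with library totals, and the median dose difference from -0.36 to 0.04 over total gene reads and 0.40 over intron reads.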
